A study of Mus musculus with 3 samples.

Results

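Club cells are the secretory cells of the mouse airway lining. They were picked out of 3 lung libraries, sequenced cell by cell with the 10x 3' method, through a gate on marker genes that kept 66 of 28782 cells (0.229%). The gate asked for at least 100 UMIs (unique molecular identifiers, 1 per captured RNA molecule) of Scgb1a1 and at least 5 of Cyp2f2. It allowed at most 2 UMIs of the ciliated cell genes Foxj1, Ccdc153 and Tmem212 together, and 0 UMIs of Ptprc (leukocytes), of Pecam1 with Cdh5 (endothelium) and of Col1a1 with Col1a2 (fibroblasts). Cells had at least 250 genes and at most 15% mitochondrial UMIs. The members were thus chosen by measured values, and the levels of these genes are a description that supports nothing.

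The lungs came from non-irradiated wild-type mice (the control), from wild-type mice after irradiation, and from irradiated mice with a conditional knockout that also received a drug. The labels name neither the deleted gene, the Cre driver, the drug, the radiation dose, the time, the age nor the number of mice, so the knockout could not be checked, and knockout and drug cannot be told apart. Since each group is a single library, variation among mice is unknown and no test was run. Intervals in brackets cover counting error only, at 95%.

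Club cells line the small airways, where they secrete secretoglobins and antimicrobial proteins and detoxify inhaled and blood-borne chemicals through cytochrome P450 and conjugating enzymes. Scgb1a1 encodes their main secreted product, and Cyp2f2 a cytochrome P450 through which naphthalene poisons them. They divide to renew themselves and give rise to ciliated cells, and under type 2 cytokines they can turn to mucus production.

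The regulatory stretches upstream of 4 genes are shown because the results turn on them: the gate gene Cyp2f2, the secretoglobin Scgb3a1, the secreted resistin-like protein gene Retnla and the neutrophil chemokine Cxcl1. Each is the 250 bases before the annotated start in RefSeq on GRCm38.p6, 5′ to 3′ on the gene's strand, with motif matches in capitals. All 4 lie on the plus strand, at chr7:27119705-27119954 (Cyp2f2), chr11:49663345-49663594 (Scgb3a1), chr16:48842359-48842608 (Retnla) and chr5:90890995-90891244 (Cxcl1).
Cyp2f2: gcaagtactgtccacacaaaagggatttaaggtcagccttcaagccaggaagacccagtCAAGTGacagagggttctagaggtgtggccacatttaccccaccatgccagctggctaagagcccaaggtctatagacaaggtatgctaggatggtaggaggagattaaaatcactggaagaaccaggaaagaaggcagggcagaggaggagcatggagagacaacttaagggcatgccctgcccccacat
Scgb3a1: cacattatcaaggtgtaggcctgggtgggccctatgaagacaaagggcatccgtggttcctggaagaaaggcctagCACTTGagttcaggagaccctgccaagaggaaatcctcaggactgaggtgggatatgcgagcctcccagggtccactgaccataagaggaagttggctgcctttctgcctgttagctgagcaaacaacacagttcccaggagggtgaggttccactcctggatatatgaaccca
Retnla: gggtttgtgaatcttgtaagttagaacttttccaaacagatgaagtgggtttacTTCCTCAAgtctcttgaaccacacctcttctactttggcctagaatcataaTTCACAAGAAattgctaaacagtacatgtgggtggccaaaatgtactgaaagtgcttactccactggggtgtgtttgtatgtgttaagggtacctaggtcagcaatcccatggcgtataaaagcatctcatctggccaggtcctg
Cxcl1: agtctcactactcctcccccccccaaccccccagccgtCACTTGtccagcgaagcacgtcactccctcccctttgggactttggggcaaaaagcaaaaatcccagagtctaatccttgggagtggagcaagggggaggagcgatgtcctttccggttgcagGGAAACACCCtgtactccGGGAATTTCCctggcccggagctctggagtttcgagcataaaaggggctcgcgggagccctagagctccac

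The capitals mark matches to 4 of 9 motifs searched on both strands. In Retnla, TTCACAAGAA matches the STAT6 motif (TTC and GAA with any 4 bases between them) 145 to 136 bases before the start, and TTCCTCAA matches the C/EBP motif TTGNGNAA on the other strand at 196 to 189 bases. In Cxcl1, GGGAATTTCC (71 to 62 bases) and, on the other strand, GGAAACACCC (89 to 80 bases) match the NF-kB motif (GGG and TTTCC with any 2 bases between them). The motif CAAGTG of NKX2-1, a transcription factor of lung epithelium, stands in Cyp2f2 at 191 to 186 bases. On the other strand it reads CACTTG, in Scgb3a1 at 174 to 169 bases and in Cxcl1 at 212 to 207 bases. Of 32851 windows of this length in the table, 5.85% hold the STAT6 motif, 11.7% the C/EBP motif, 1.41% the NF-kB motif and 11.6% the NKX2-1 motif. The other 5 motifs (AP-1 TGANTCA, CRE TGACGTCA, FOXA TGTTTAC, ISRE, which is GAAA and GAAA with any 2 bases between them, and a serum response element) had no match in these 4 windows. A match describes the letters and shows no binding.

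The gate took 30 of 13091 cells in the non-irradiated library (0.229%, 0.155 to 0.327), 16 of 5805 in the irradiated wild-type library (0.276%, 0.158 to 0.447) and 20 of 9886 in the knockout library with drug (0.202%, 0.124 to 0.312). The 3 intervals overlap, and the ratio of shares between irradiated and non-irradiated wild-type was 1.203 (0.612 to 2.28). The Scgb1a1 threshold alone passed 133, 33 and 53 cells, and with the Cyp2f2 threshold 65, 27 and 27 were left. The negative genes then removed 35, 11 and 7 cells, whose median depths of 15582, 50942 and 61590 UMIs were above those of the members. The lowest Scgb1a1 count among members was 184, 534 and 2343 UMIs, and the highest among cells that failed this threshold alone was 14, 9 and 75. At the Cyp2f2 threshold, 4, 2 and 1 members had 5 or 6 UMIs, and 17, 2 and 7 cells just outside had 3 or 4.

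Members held 603651, 596446 and 635306 UMIs in all, spread very unevenly. Median depth per cell was 6914.5 UMIs in the non-irradiated, 24760.5 in the irradiated wild-type and 30983.5 in the knockout library, and 12, 2 and 2 members had under 5000 UMIs. The deepest member alone gave 21.1%, 23.6% and 9.18% of its library's member UMIs. Sums over members therefore speak for a few deep cells, and values per cell are given beside them. Libraries shared 25 to 46 barcodes by pair, none of them a member's.

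Scgb1a1 made up 61.1%, 52.9% and 68.3% of all member UMIs, and its median count per cell was 2777.5, 14926.5 and 21016. A difference in this 1 gene shifts the CPM (counts per 1000000 member UMIs) of every other gene. Ratios are therefore also given with totals that leave out Scgb1a1 and Cyp2f2. Cyp2f2 had a median of 12, 89 and 55.5 UMIs per cell. The third defining marker, Scgb3a2, was not used by the gate, and 27 of 30, 15 of 16 and 20 of 20 members held it.

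**Figure D1:**
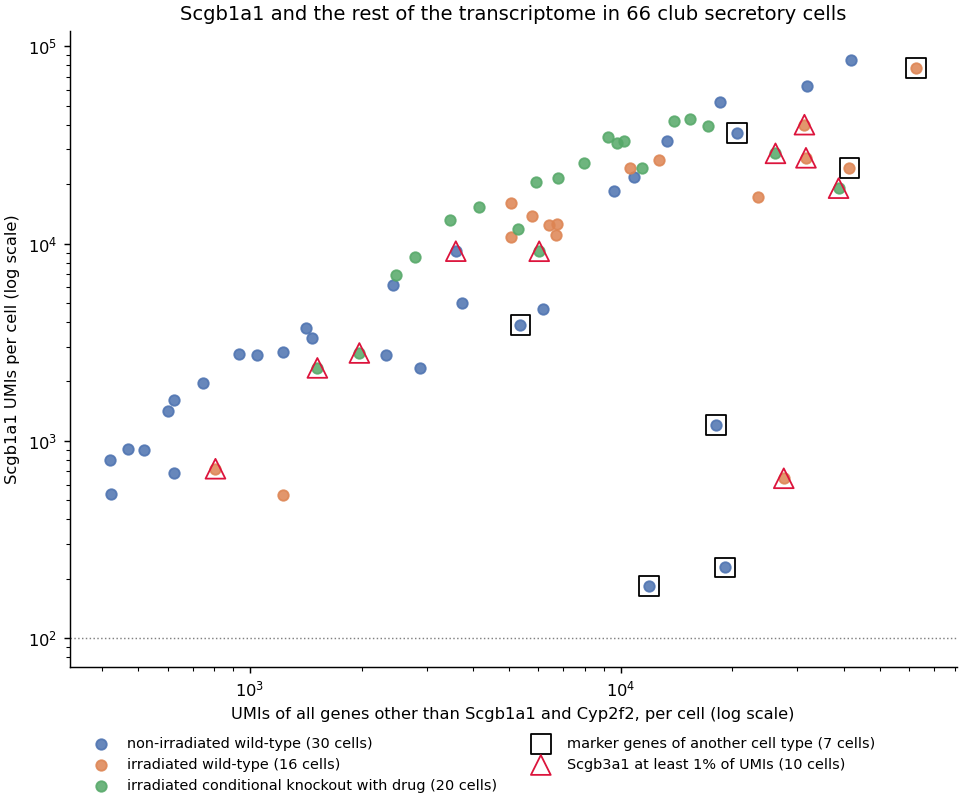
Scgb1a1 UMIs (vertical, log scale) against the UMIs of all genes other than Scgb1a1 and Cyp2f2 (horizontal, log scale) in each of the 66 members, coloured by library, with the gate's 100 UMIs as a dotted line. Triangles mark 10 cells with Scgb3a1 at 1% of UMIs or more and squares 7 cells with marker genes of another cell type, of which 3 non-irradiated cells lie low in Scgb1a1 for their depth, as does 1 Scgb3a1-high irradiated wild-type cell.

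By cutoffs set after the data were seen, markers of other cell types went against the label in 7 members. Basal cell markers were high in a further irradiated wild-type cell, described below. In 3 non-irradiated cells (Sftpc 2135, 3497 and 3080 UMIs) and 1 irradiated wild-type cell (Sftpc 1731), Sftpc, which marks alveolar type 2 cells, was at least 1% of UMIs. The 3 non-irradiated ones had no Scgb3a2. Another 2 non-irradiated members held 64 and 143 UMIs of S100a8, a neutrophil gene. An irradiated wild-type member held 177 UMIs of Ager, which marks alveolar type 1 cells, and no Scgb3a2. Scrublet marked 1 member as a doublet. Without these 7 cells, 25, 14 and 20 members are left, and values without them are named as such. All 12 alveolar type 2 markers had UMIs in both wild-type libraries and 11 of 12 in the knockout library (Lamp3 at 0), with 22432, 10806 and 2487 CPM summed over members, or 3938, 3278 and 2487 CPM without the 7 cells. The part of these cells in the results was not tested beyond the values given without them.

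Markers of other lineages varied. The 12 myeloid markers summed to 6550, 2892 and 53.5 CPM, or 86.3, 76.9 and 53.5 CPM without the 7 cells. C1qa, C1qb, Mrc1 and Marco were at 0 in every library. Lyz2 alone gave 3269 of the 3954 myeloid marker UMIs in the non-irradiated and 1700 of 1725 in the irradiated wild-type library. Of its UMIs, 3234 and 1622 lay in the Sftpc-rich cells (3 and 1), so these sums are mostly not separate from the Sftpc signal. The 10 fibroblast markers summed to 222, 163 and 80.3 CPM, or 240, 241 and 80.3 CPM without the 7 cells, with Lum and Tcf21 at 0 throughout, and their part in the results was not tested. The 7 basal cell markers summed to 0, 58.7 and 51.9 CPM, and the highest cell reached 1201 CPM in irradiated wild-type and 570 CPM in the knockout library. That irradiated wild-type cell had Scgb1a1 at 2.28% of UMIs and Scgb3a1 at 1% or more. It is not among the 7 cells, so values without them still hold it (89.8 CPM of basal markers). The 11 neuroendocrine, tuft cell and ionocyte markers summed to 4.97, 8.38 and 0 CPM. T and NK cell markers stayed at 14.2 to 18.2 CPM and B cell markers at 4.72 to 50.3. The 8 endothelial markers summed to 49.7, 35.2 and 12.6 CPM, with 6, 1 and 1 of them seen. Pecam1 and Cdh5 were at 0 by the gate, and Cldn5 was at 0 in both irradiated libraries. The 12 ciliated cell markers, of which the gate limits 3, summed to 239, 121 and 91.3 CPM. The 8 alveolar type 1 markers summed to 427, 801 and 206 CPM, or 335, 333 and 206 CPM without the 7 cells. Xist with no Y-linked gene was seen in 13, 6 and 5 members and the reverse in 0, 2 and 0; the other 17, 8 and 15 showed neither.

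RNA of broken cells sets a background. In B cells, which make neither protein, Sftpc was found in 99.4%, 21.0% and 35.7% and Scgb1a1 in 91.3%, 57.2% and 86.6% of cells, at median depths of 4739.5, 4946 and 5914 UMIs. Sftpc was found in 30 of 30, 5 of 16 and 7 of 20 members, close to those shares. Retnla was found in 0.243%, 0.990% and 0.311% of B cells and Scgb3a2 in 4.21%, 1.98% and 4.35%.

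Among the secretoglobins, small secreted proteins of the airway surface, Scgb3a2 was close across libraries in summed CPM. It had 6204 UMIs (10278 CPM) in the non-irradiated, 5491 (9206 CPM) in the irradiated wild-type and 6017 (9471 CPM) in the knockout library. Its log2 ratio was -0.16 for irradiated against non-irradiated wild-type and 0.04 for knockout with drug against irradiated wild-type. All ratios are of CPM with 5 CPM added to both sides. With totals that leave out Scgb1a1 and Cyp2f2 these ratios were -0.44 and 0.61, so the closeness depends on the scaling. In members of at least 5000 UMIs, its median share of the UMIs other than Scgb1a1 and Cyp2f2 was 1.96%, 3.04% and 3.11%. The ranges overlapped.

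Scgb3a1, a relative found in more proximal airways, split the members. It reached 1.204% to 4.74% of UMIs in 10 cells (1 non-irradiated, 4 irradiated wild-type, 5 knockout), and at most 0.0986% in the other 56. Summed, Scgb3a1 had 188, 4819 and 4448 UMIs, found in 6, 6 and 10 cells, and 1 cell held 94.7%, 70.5% and 54.4% of them. The log2 ratio was 4.68 for irradiated against non-irradiated wild-type and 4.47 for knockout with drug against non-irradiated wild-type. Without the 10 cells, which Scgb3a1 itself chose, the ratios were 0.09 and 2.73, a description of the cells left and no test.

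The same 10 cells carried the genes of mucous and antimicrobial secretion. Reg3g, an antibacterial lectin, had UMIs in 9 of the 10 and in 0 of the other 56. Muc5b, a gel-forming mucin, had 229 UMIs in 7 of the 10 and 15 UMIs in 6 of the 56. Reg3g was at 0 in 30 non-irradiated cells, which allows a share of up to 10.0%, and had 209 UMIs in 4 irradiated wild-type and 1433 in 5 knockout cells. A single cell held 114 of the 209 and 1220 of the 1433. Against a floor of 3 UMIs in the non-irradiated library the sums were at least 70.5-fold and 454-fold higher. These folds rest on UMIs of few cells, and the control had only 1 Scgb3a1-high cell. The cells were picked after their values were seen, so this is a description of 10 cells.

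Scgb1c1, a further secretoglobin, had another order in sum. It had 97 UMIs in 13 of 30 non-irradiated, 25 in 10 of 16 irradiated wild-type and 94 in 16 of 20 knockout cells, and no cell held more than 21.6% of them. In CPM that is 161, 41.9 and 148. In the non-irradiated library 4 cells held 65 of the 97 UMIs. The median cell held 0, 1.5 and 2 UMIs, so UMIs per cell did not follow the order of the sums. In members of at least 5000 UMIs, its median share of the UMIs other than Scgb1a1 and Cyp2f2 was 0.0177%, 0.00798% and 0.0575%. The log2 ratio was -1.82 between the wild-type libraries and 1.71 for knockout with drug against irradiated wild-type. Among 21 genes called higher in the knockout library than in irradiated wild-type, it was the 1 gene so called under all 8 settings compared here (1.53 to 2.33). In members thinned to 2000 UMIs the second ratio turned to -0.91, on few counts. In B cells Scgb1c1 was in 0.485%, 0.198% and 0.155%.

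**Figure D2:**
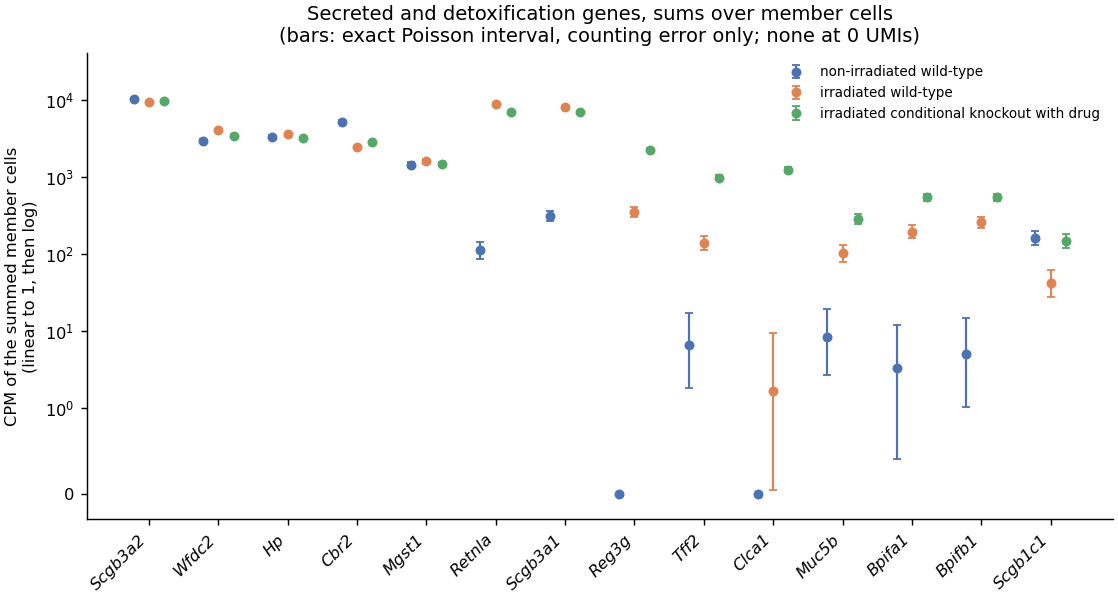
CPM of 14 secreted and detoxification genes (vertical, linear to 1 and then log) in the summed members of each library, with exact Poisson intervals. Scgb3a2, Wfdc2, Hp and Mgst1 lie close together across libraries, while Retnla, Scgb3a1 and the mucous genes are spread by 10-fold or more, and Scgb1c1 is lowest in irradiated wild-type.

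Several common secretory and detoxifying genes were close in all 3 libraries. Hp (haptoglobin) had 1994, 2122 and 1992 UMIs and Wfdc2, a protease inhibitor, 1769, 2408 and 2169, in nearly every cell. Mgst1, a membrane glutathione transferase, had 870, 942 and 922 UMIs. Cbr2, a lung carbonyl reductase, had 3134, 1436 and 1784 UMIs in all members, or 5192, 2408 and 2808 CPM. Cbr2 was lower in irradiated than in non-irradiated wild-type by a log2 ratio of -1.11. Per cell the gap was smaller: in members of at least 5000 UMIs, its median share of the UMIs other than Scgb1a1 and Cyp2f2 was 1.10%, 0.662% and 1.08%, and the ranges overlapped.

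Other detoxifying genes went either way. Gsta3 (208, 110 and 150 UMIs), Gstm1 (257, 138 and 156), both glutathione transferases, and Aox3, an aldehyde oxidase (108, 48 and 44), were lower in irradiated wild-type, with log2 ratios of -0.88, -0.87 and -1.11. Gsto1, a further glutathione transferase, was higher, with 36, 169 and 139 UMIs and 2.16. Of 37 genes of xenobiotic metabolism, 27 had the 20 UMIs over both libraries needed to be measured, and 9 were at least 1.5-fold higher and 5 lower. Their median log2 ratio was 0.31, against 0.32 over all 3036 genes measured, of which 30.5% were higher and 7.84% lower. With totals without Scgb1a1 and Cyp2f2 both medians came near 0 (0.04 and 0.08). Glutathione transferases are close relatives, and reads may be split between them.

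Among genes called higher in irradiated than in non-irradiated wild-type club cells, Retnla had the largest log2 ratio. It encodes a secreted resistin-like protein of airway epithelium and macrophages that type 2 cytokines induce. It had 67 UMIs in the non-irradiated, 5241 in the irradiated wild-type and 4348 in the knockout library, or 111, 8787 and 6844 CPM. It was present in 9 of 30, 15 of 16 and 17 of 20 cells, and the median cell held 0, 39.5 and 69.5 UMIs. In cells thinned to 2000 UMIs the shares were 24.0% of 25, 71.4% of 14 and 70.0% of 20 cells.

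Both irradiated libraries stood above the control in most cells, but 1 cell weighs heavily. A single irradiated wild-type cell, the one with Sftpc at 1731 UMIs, held 4086 UMIs of Retnla (78.0%). The next highest had 413, against a highest value of 26 in the non-irradiated library. The log2 ratio was 6.24 with all cells, 4.502 without the deepest cell of each library and 4.37 without the 7 cells of mixed markers. For knockout with drug against non-irradiated wild-type it was 5.88. Between the irradiated libraries it was -0.36, or 0.21 without Scgb1a1 and Cyp2f2 in the totals.

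Outside club cells the level depended on the cell type. Retnla reached 31.5 CPM at most in gated B, T, myeloid, endothelial and fibroblast cells of any library. Alveolar type 2 cells had 37.7, 906 and 15.1 CPM (278, 28 and 38 cells) and ciliated cells 137, 77.8 and 816 CPM (36, 30 and 35 cells), so both types lay above the non-irradiated club cells' 111 CPM in some libraries. Among members of at least 5000 UMIs, Retnla was a median of 0%, 0.445% and 0.794% of the UMIs other than Scgb1a1 and Cyp2f2. It was present in 8 of 29, 12 of 12 and 12 of 15 members outside the Scgb3a1-high set, so it was not limited to that set.

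**Figure D3:**
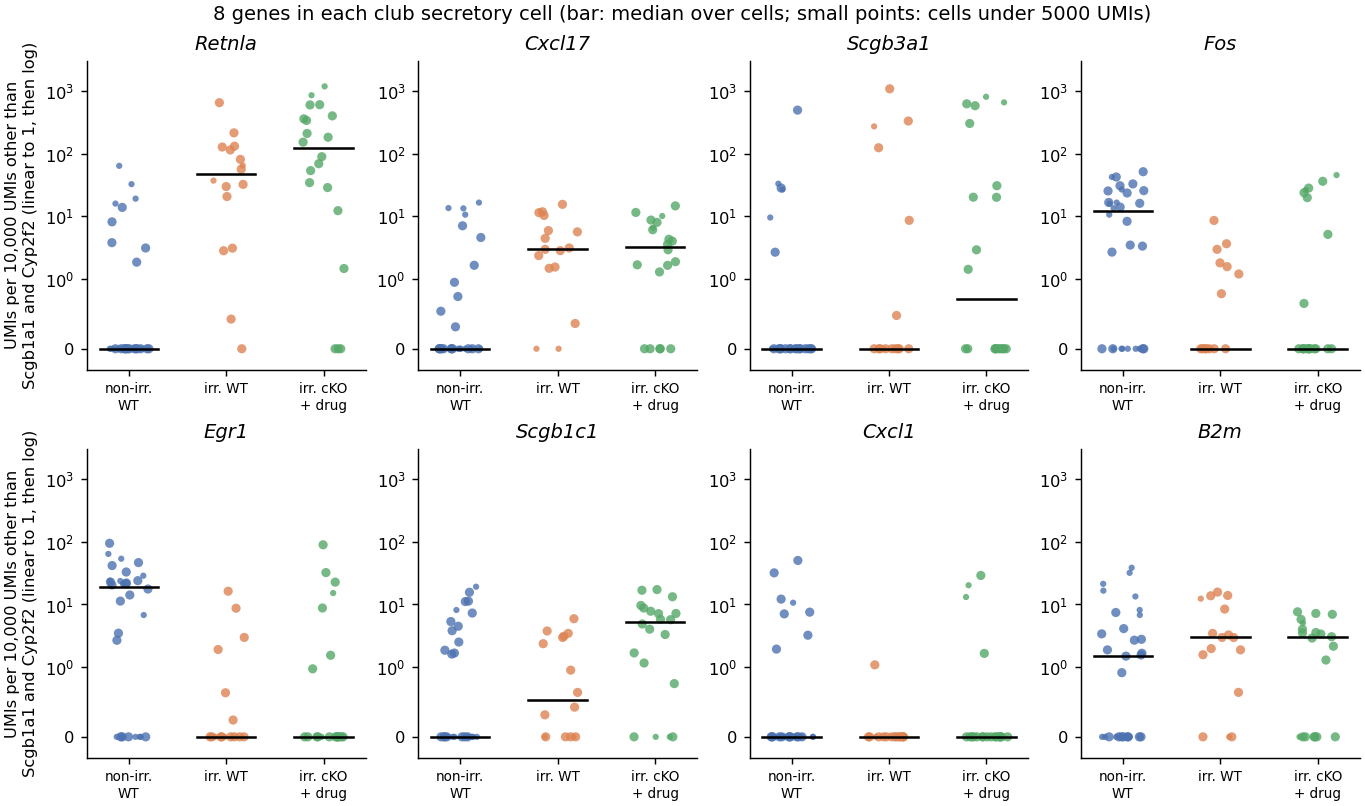
UMIs of 8 genes per 10000 UMIs other than Scgb1a1 and Cyp2f2 (vertical, linear to 1 and then log) in each member, by library, with the median as a bar and cells under 5000 UMIs as small points. Retnla and Cxcl17 medians are at 0 in non-irradiated and above 0 in both irradiated libraries, the Fos and Egr1 medians the reverse, and B2m overlaps throughout.

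Between irradiated and non-irradiated wild-type, 206 of 1257 genes with at least 30 UMIs in either library were at least 2-fold higher (16.4%) and 57 lower (4.53%). Higher genes made up 78.3% of those called, or 62.0% with totals without Scgb1a1 and Cyp2f2, which gave 150 higher (11.9%) and 92 lower (7.32%). That share was 51.7% without the Scgb3a1-high cells (105 higher and 98 lower) and 53.8% with every cell weighted equally (267 and 229). The lean to higher genes was nearly absent there. Equal cell weights, here and below, also use totals without Scgb1a1 and Cyp2f2, so their shifts are not of weighting alone. The median gene shifted by 0.41 on the log2 scale, or 0.15 with those totals. Of these, 25 higher and 16 lower genes kept the call under 8 settings of scaling, cell weights and left-out cells. The 16 include Sftpc (-2.34), which members held at shares close to those of B cells. Fold sizes below are descriptions of 2 libraries.

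The higher genes named by rule were of several kinds. Cxcl17, a chemokine of mucosal epithelium, had 21 UMIs in 11 of 30 non-irradiated, 163 in 14 of 16 irradiated wild-type and 124 in 15 of 20 knockout cells. The median cell held 0, 4.5 and 1.5 UMIs of it and its log2 ratio was 2.81. The top cell held 23.8%, 39.9% and 46.0% of its UMIs. In B cells it was found in 0.566%, 0.594% and 0.311%.

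Qsox1, an oxidase that forms disulfide bonds, had 17, 146 and 118 UMIs in 12, 10 and 15 cells (log2 ratio 2.91). Anxa1, a phospholipid-binding protein that restrains inflammation, had 28, 342 and 158 UMIs in 16, 12 and 12 cells (3.49). F3, tissue factor, which starts coagulation, had 24, 223 and 86 UMIs (3.08). For sums of Anxa1 and F3 the knockout library lay between the wild-type libraries, but 1 knockout cell held 66.5% of its Anxa1 and 1 held 74.4% of its F3. In irradiated wild-type, 4 cells held 292 of the 342 UMIs of Anxa1 and 1 cell held 48.9% of F3. Ptges, a prostaglandin synthase, had 0, 33 and 16 UMIs, at least 11.1-fold higher than a floor of 3 UMIs in the non-irradiated library. Fxyd3, an ion pump regulator, had 4, 51 and 88 UMIs and Fam107b 6, 81 and 16, though B cells held 209 to 232 CPM of Fam107b, above the members of any library.

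Of the 17 genes of a transitional keratin list, which mark epithelium in repair, 12 were measured, and 11 were higher and 0 lower in irradiated wild-type. The median was 1.95, and 0.87 with every cell weighted equally, against 0.32 and 0.01 over all genes. Krt8, a simple keratin, had 100, 247 and 272 UMIs in 17, 13 and 17 cells, 184 of the 247 in 4 cells and 165 of the 272 in 1 cell. Cldn4, a tight junction protein, had 19, 230 and 113 UMIs in 6, 7 and 6 cells, with 52.6% and 71.7% in a single cell in the irradiated libraries. Lgals3, galectin-3, had 8, 139 and 131 UMIs, 126 of the 139 in 4 cells and 103 of the 131 in 1 cell. Sfn, a cell cycle inhibitor of epithelium, had 40, 383 and 225 UMIs with 156 of the 225 in 1 cell. B cells held 147, 206 and 130 CPM of Sfn, above the non-irradiated members' 66.3 CPM.

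**Figure D4:**
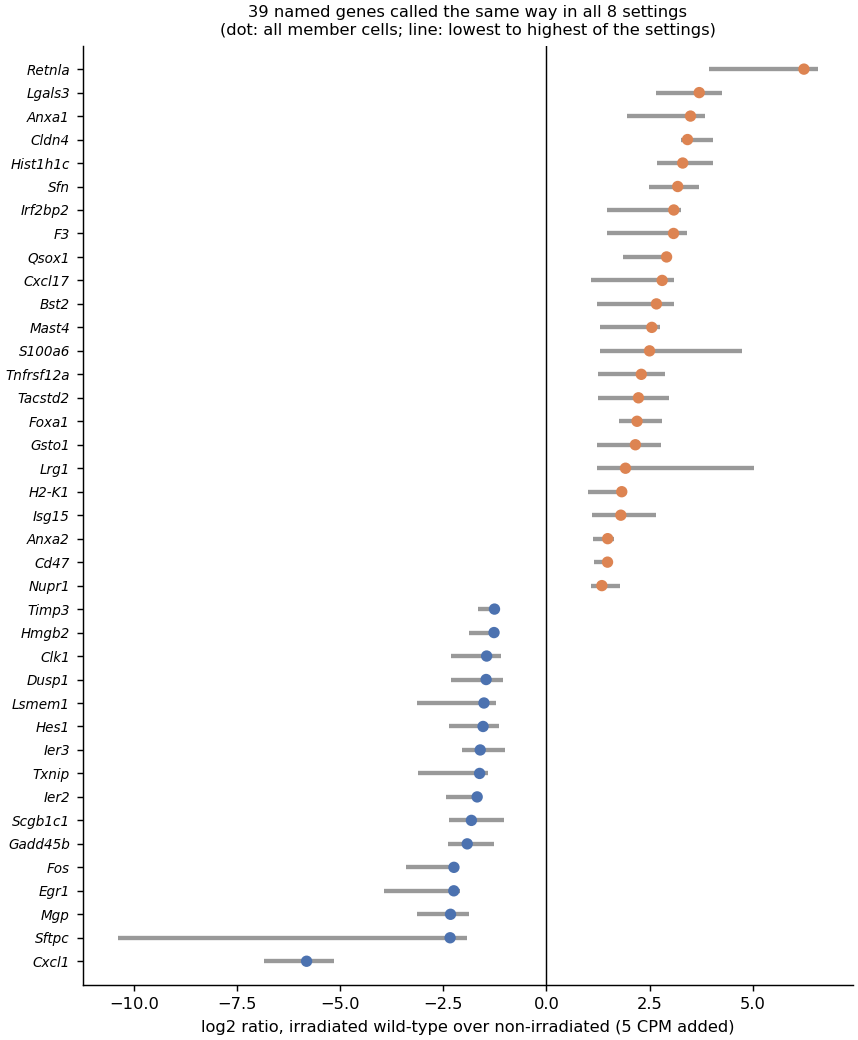
Log2 ratios (horizontal, 5 CPM added) of 39 genes with assigned names that were called the same way under all 8 settings in irradiated over non-irradiated wild-type. Dots show all members and lines the lowest to the highest setting. Retnla (6.24) and Lgals3 (3.71) top the higher genes and Cxcl1 (-5.82) is the lowest. Sftpc (-2.34), found in B cells too, is among the lower genes.

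Immediate early genes, which cells switch on within minutes of a stimulus, were mostly lower. Of 17 such genes, all measured, 10 were lower and 2 higher in irradiated than in non-irradiated wild-type, with a median of -0.84, or -1.30 with every cell weighted equally. Over all genes 7.84% were lower and 30.5% higher, with medians of 0.32 and 0.01. Fos had 361 UMIs in 20 of 30, 73 in 7 of 16 and 170 in 8 of 20 cells, and Egr1 477 in 21, 97 in 6 and 134 in 7. Their log2 ratios were -2.24 and -2.25. Both medians per cell were above 0 in the non-irradiated library (2 and 1.5 UMIs) and 0 in the irradiated ones. In the knockout library, Fos was found in 5 of 5 Scgb3a1-high cells and 3 of the other 15.

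Fos in B cells had the same order, at 431, 142 and 186 CPM, while Egr1 in B cells was at 1425, 2073 and 1410 CPM. The part of a library-wide difference in Fos was not tested. Further genes named by rule were Ier2 (467, 142 and 223 UMIs), Ier3 (875, 282 and 148), the stress gene Gadd45b (790, 204 and 105) and Txnip, which restrains glucose uptake (137, 42 and 34). Idi1, an enzyme of cholesterol synthesis, had 32, 4 and 9 UMIs and Rac3, a small GTPase, 44, 10 and 8. Idi1 was not called without the 7 mixed cells and with totals without Scgb1a1 and Cyp2f2 (-1.93). Hes1, a target of Notch signalling, had 361, 121 and 62 UMIs in 16, 13 and 12 cells, with a log2 ratio of -1.54.

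Cxcl1, the neutrophil chemokine with 2 NF-kB matches above, had 338 UMIs in 8 non-irradiated cells, 3 in 1 irradiated wild-type cell and 83 in 4 knockout cells. Of these, 330 of the 338 were in 4 cells and 76 of the 83 in 1. The log2 ratio of irradiated to non-irradiated wild-type was -5.82. It was low in every irradiated wild-type cell, but the non-irradiated level rests on few cells.

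Antigen presentation and interferon genes were higher in irradiated wild-type in sum. Of 19 genes of MHC class I and its processing, 13 were measured and 12 were higher and 0 lower, with a median of 1.501 (1.24 without Scgb1a1 and Cyp2f2 in the totals). Over all genes 30.5% were higher and 7.84% lower, with a median of 0.32 (0.08). Their sums rest on few cells. H2-K1, a class I heavy chain, had 100, 358 and 119 UMIs, and 322 of the 358 were in 4 cells. B2m, the light chain, had 47, 214 and 76 UMIs, 191 of the 214 in 4 cells. With every cell weighted equally and totals without Scgb1a1 and Cyp2f2, the B2m log2 ratio of 2.13 became -0.082. The weights and the totals were changed together. In members of at least 5000 UMIs H2-K1 was a median of 0.036%, 0.035% and 0.051% of the other UMIs. Class I genes are near-identical copies, so reads may be split among them.

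Of 27 type I interferon-stimulated genes, 5 could be measured and all 5 were higher, with a median of 2.82, against 30.5% of all genes and a median of 0.32. Isg15, a ubiquitin-like protein, had 19, 73 and 2 UMIs in 5, 7 and 1 cells, 12 of the 19 in 1 cell and 70 of the 73 in 4 cells. Bst2, which tethers viruses to the membrane, had 11, 85 and 26 UMIs in 7, 9 and 12 cells. Irf7, a transcription factor of the response, had 3, 39 and 9 UMIs in 2, 5 and 4 cells. It was not called without the 7 mixed cells and with totals without Scgb1a1 and Cyp2f2 (2.36). The other 22 were too low to measure in these cells.

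Of 29 p53 target genes, 14 were measured, and 9 were higher and 2 lower in irradiated wild-type, with a median of 1.25, against 30.5%, 7.84% and 0.32 over all genes. Without the Scgb3a1-high cells 4 of 10 were higher and 3 lower, with a median of 0.37, against 24.1%, 13.6% and 0.21 over all genes. Cdkn1a, the p21 inhibitor of division, had 32, 85 and 59 UMIs in 11, 6 and 7 cells. Ccng1, a p53-induced cyclin, had 9, 56 and 12 UMIs in 7, 7 and 5 cells. Gdf15, a stress hormone, had 6, 138 and 52 UMIs in 2, 4 and 7 cells, 94.9% of the 138 in 1 cell. None of these 3 was in a majority of members of any library.

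**Figure D5:**
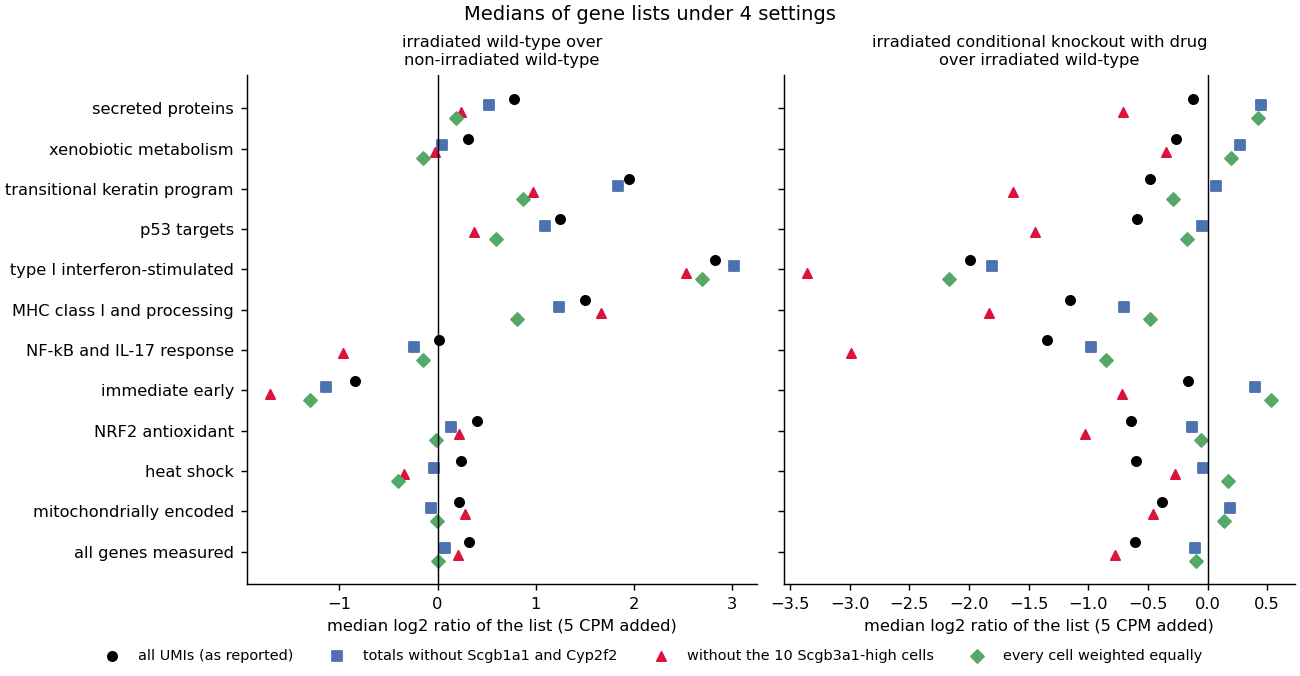
Median log2 ratio of 11 gene lists and of all genes measured (horizontal, 5 CPM added) for irradiated over non-irradiated wild-type and for knockout with drug over irradiated wild-type, under 4 settings. Interferon-stimulated, MHC class I and transitional keratin medians lie right of 0 on the left panel under all 4, and the first 2 lie left of 0 on the right panel. The all-genes median is 0.32 as reported, 0.21 without the Scgb3a1-high cells and 0.01 with equal cell weights on the left panel. On the right panel it is -0.61, -0.78 and -0.10 in the same settings. The side of 0 alone therefore does not set these lists apart. Equal cell weights also leave Scgb1a1 and Cyp2f2 out of the totals.

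Between knockout with drug and irradiated wild-type, 21 of 1200 genes were higher (1.75%) and 331 lower (27.6%), and the median gene shifted by -0.64. With totals without Scgb1a1 and Cyp2f2 the split was 36 higher (3%) and 132 lower (11%) and the median shift -0.10. Higher genes made up 5.97% of those called with the first scaling and 21.4% with the second. Under all 8 settings 1 higher and 22 lower genes kept the call.

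Among the lower genes were some of the interferon response and of antigen presentation. Isg15 had 73 UMIs in 7 irradiated wild-type cells, 70 of them in 4 cells, and 2 in 1 knockout cell (log2 ratio -3.97). Cd74, the MHC class II chaperone, had 160 UMIs in the non-irradiated, 248 in the irradiated wild-type and 15 in the knockout library (-3.88), with 54.8% of the 248 in 1 cell. B cells held 13500, 13442 and 15715 CPM of Cd74, and the part of their free RNA was not tested. Of 15 measured class I genes 13 were lower and 0 higher, with a median of -1.15 against -0.61 over all genes, of which 51.5% were lower and 2.49% higher. For 6 interferon genes 5 were lower, with a median of -1.99. With every cell weighted equally the 2 medians were -0.48 and -2.17, against -0.10 over all genes. Without the 7 cells of mixed markers and with totals without Scgb1a1 and Cyp2f2, only 3 of 11 measured class I genes were lower (27.3%), near the 23.2% of all genes, and 5 of 5 interferon genes were.

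Of the other genes lower in the knockout library under all 8 settings, 4 are given here, chosen after their values were seen. Thbs1, a matrix protein, had 58, 100 and 3 UMIs in 7, 4 and 3 cells. Cxcl2, a neutrophil chemokine, had 336, 193 and 17 UMIs in 14, 5 and 4 cells. Zfp36l1, which destabilises messenger RNA, had 127, 190 and 41 UMIs in 15, 11 and 12 cells. Foxa1, a transcription factor of airway epithelium, had 10, 56 and 17 UMIs, so the knockout library was near the control. Also named by rule were Mast4 (8, 61 and 6 UMIs), Srpk2, a splicing kinase (13, 38 and 3), Sox4, a transcription factor (26, 41 and 4), Trib1 (25, 64 and 10), Mob1b (20, 51 and 8), Atp8a1 (62, 69 and 12) and Tiparp (36, 100 and 20). Atp8a1 was not called without the 7 mixed cells and with totals without Scgb1a1 and Cyp2f2 (-1.35).

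Mucous genes were higher in the knockout library, in very few cells. All 6 measured members of the goblet cell list were higher, with a median of 3.17, against 2.49% of all genes and a median of -0.61. Clca1, a secreted mucus protein, had 0, 1 and 786 UMIs, all 786 in the 5 Scgb3a1-high cells and 760 in 1 of them. Tff2, a trefoil peptide that protects mucosa, had 4, 83 and 616 UMIs, 607 of the 616 in the same 5 cells. Agr2, a mucin chaperone, had 0, 4 and 134 UMIs, 126 in that 1 cell. That same cell held the highest knockout counts of Tff2 (506 UMIs), Reg3g (1220), Muc5b (120), Krt8 (165), Sfn (156), Lgals3 (103) and Anxa1 (105). It also held the 570 CPM of basal cell markers given above, so these values are not separate traits of the library. No goblet gene could be measured without the Scgb3a1-high cells. Lbp, which binds bacterial lipopolysaccharide, had 7, 2 and 40 UMIs in 3, 2 and 8 cells, and Pir, an iron-binding nuclear protein, 27, 14 and 35 UMIs in 8, 6 and 16 cells. Bpifb1, a host-defence protein of the airway, had 3, 152 and 345 UMIs in 2, 3 and 7 cells. Its log2 ratio of 1.08 was -0.33 without cells with over 2 UMIs of Lamp3 and Slc34a2, and it was not called without the 7 mixed cells. Chad had 17, 28 and 64 UMIs, Fgfbp1 16, 11 and 32 and Sertad1 16, 14 and 37.

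The knockout library with drug against the non-irradiated one shares both libraries with the comparisons above, so its values only stand beside them. Of 983 genes, 50 were higher (5.09%) and 155 lower (15.8%), or 79 (8.04%) and 116 (11.8%) with totals without Scgb1a1 and Cyp2f2. Higher genes made up 24.4% or 40.5% of those called, but 2.18% without the Scgb3a1-high cells (6 higher and 269 lower) and 56.0% without the 7 mixed cells under the second totals (79 and 62). Retnla, Scgb3a1 and Qsox1 were the 3 higher genes that kept the call under all 8 settings, and 31 lower genes did. The 31 include Sftpc (-9.17), Lyz2 (-7.73), Cd74 (-3.24) and Ager (-2.16), for which the part of other cell types or free RNA was not tested. Cxcl17 had a log2 ratio of 2.33 here. The immediate early genes were again low: 11 of 17 were lower and 0 higher, with Egr1 at -1.88, Ier3 at -2.61 and Gadd45b at -2.95, and a list median of -1.004 against -0.30 over all 2432 genes measured, of which 7.52% were higher and 31.4% lower. The transitional keratin list had 10 of 12 higher and 0 lower, with a median of 1.59 that became -0.56 without the Scgb3a1-high cells.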

How the data were processed

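Lung cells of 3 groups were measured with 10x 3' single-cell RNA sequencing, 1 library per group. Values in the deposited files are raw UMI counts, 1 matrix per library with genes against barcodes. The file headers give software version 3.1.0 without its name, and the submitters' processing notes give build mm10. Every barcode holds at least 500 UMIs. The libraries held 85984536, 45800421 and 76667310 UMIs, and 31054 features with 31018 symbols (counts of a repeated symbol were summed).

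Member counts were summed per library and given as CPM with exact Poisson intervals, and shares with Clopper-Pearson intervals. Ratios add 5 CPM to both sides. Genes were called at 2-fold with at least 30 UMIs in the higher library, and list genes at 1.5-fold with 20 UMIs over both. Genes of the gate, Xist, Tsix and Y-linked genes were not counted. Named genes are the 10 highest and 10 lowest called genes of the first 2 comparisons with a UMI in at least 5 cells of the higher library, no cell holding over 50%, and at least 20% of the highest CPM of other gated cells, without mitochondrial, ribosomal protein, haemoglobin, receptor-segment and clone-model genes, plus the 20 genes of highest CPM. Other named genes are list members or were picked after their values were seen. Members and the 36 lists were chosen with earlier results of these data known. Scrublet in scanpy 1.11.5 scored doublets, which stayed in. The 8 settings, the 7 cells of mixed markers and the 10 Scgb3a1-high cells were set after the data were seen. The scoring was tested on simulated library sums without variation between cells, so that test does not cover genes whose UMIs lie in few cells. Sums and intervals came from pandas 2.3.3 and scipy 1.17.1 with numpy 2.4.6 under Python 3.11.15, and plots from matplotlib 3.10.9.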

Additional observations from a re-analysis of the deposited data

How the results depend on the processing

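No paired analysis was possible because each group is 1 library. The main limits are 16 to 30 cells per library, a few deep cells that hold most counts, and Scgb1a1 at over 50% of UMIs.

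Shares moved with Xist-positive cells alone (0.132% non-irradiated, 0.061% knockout) and with negative genes at up to 2 UMIs (0.367% non-irradiated). Counts of called genes are given below as higher and lower for the first (irradiated against non-irradiated wild-type), second (knockout with drug against irradiated wild-type) and the third comparison (knockout with drug against non-irradiated wild-type), where they moved by over 1.5 times. Leaving out cells with over 2 UMIs of Lamp3 and Slc34a2 gave 27 lower, 10 and 204, and 53 lower. Xist-positive cells alone gave 62 and 176 in the second and 88 higher in the third. Leaving out Sftpc-rich cells gave 33 lower in the first and 93 lower in the third, and leaving out all 7 mixed cells 24, 178 and 62 lower. Without the Scgb3a1-high cells the counts were 105 and 98, 2 higher, and 6 and 269. With 20 CPM added, 202 were lower in the second. With no minimum on UMIs they were 1230 and 340, 113 and 2054, and 300 and 1248. Median-of-ratios scaling gave 131 and 94, then 36 and 112. Totals without Scgb1a1 and Cyp2f2 gave 92 lower, 36 and 132, and 79 higher. Equal cell weights, with Scgb1a1 and Cyp2f2 left out of the totals, gave 229 lower, 55 higher, and 107 and 246. Thinning to 2000 UMIs in 14 cells per library gave 12 and 2, 1 and 18, and 3 and 8, since few genes could be tested. Those totals without the Sftpc-rich cells gave 42 and 136 in the second and 86 lower in the third, and without all 7 mixed cells 133 higher, 42 and 100, and 79 and 62.

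Among single genes called as reported, direction turned for B2m in the first comparison with equal cell weights (-0.082) and for Scgb1c1 in the second when thinned (-0.91). It also turned for Bpifb1, an airway host-defence protein, in the second without cells with over 2 UMIs of Lamp3 and Slc34a2 (-0.33). The transitional keratin median turned in the third without the Scgb3a1-high cells (-0.56). Over all single genes followed and all settings, 201 values kept their direction but lost the call. Another 38, of genes not called as reported, changed direction, and 1546 kept both direction and call status. The xenobiotic median in the first, which was near that of all genes, went from 0.31 to -0.15 with equal cell weights, and the p53 target median in the third from 0.69 to -1.31 without the Scgb3a1-high cells. The causes were not tested.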

Other observations

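Sums of 2 surfactant protein genes that club cells also make were lowest in the knockout library, but not the values per cell of Sftpd. Sftpa1 had 1738, 990 and 525 UMIs in 28, 15 and 20 members, and Sftpd 633, 561 and 169 in 23, 15 and 18, with 333 of the 561 in 1 cell. The median cell held 2, 8.5 and 5.5 UMIs of Sftpd, and in members of at least 5000 UMIs its median share of the UMIs other than Scgb1a1 and Cyp2f2 was 0.123%, 0.109% and 0.113%. Slpi, a protease inhibitor, had 130 UMIs in 6 non-irradiated cells, 12 in 3 irradiated wild-type cells and 0 in 20 knockout cells. Clu (clusterin) had 48, 497 and 39 UMIs, with 407 of the 497 in the irradiated wild-type cell that held Ager. Krt15 had 135 UMIs in a single irradiated wild-type cell, the one high in basal cell markers. Chil4 had 147 UMIs in 1 knockout cell and none elsewhere. Nkx2-1, the lung epithelial transcription factor, stood at 33, 34 and 26 UMIs in 13, 12 and 13 cells.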
